A study of Mus musculus with 4 samples.

Results

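Matrix proteases and their tissue inhibitors were followed in differentiating 3T3-L1 cells. The cells were given siRNA against LSD1, siRNA against riboflavin kinase, or tranylcypromine, a drug that blocks LSD1 among other enzymes, beside a control siRNA. The set holds 10 genes: the inhibitors Timp1, Timp2 and Timp3, the matrix metalloproteinases Mmp2, Mmp3 and Mmp14, and the ADAM and ADAMTS proteases Adam8, Adamts1, Adamts5 and Adamts16. All probe sets that the platform annotation gives to these genes alone were taken, which came to 25 of 45101 probe sets and 10 of 18194 named genes. The genes were chosen with their signals on the 4 arrays and their differences from control siRNA in view, so every value below is a description and none is tested.

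Matrix metalloproteinases are zinc enzymes that cut collagens, basement membrane and other proteins outside the cell, and TIMP proteins block them by binding the active site. MMP14 sits in the cell membrane, cuts pericellular collagen and activates the secreted MMP2, a step in which TIMP2 serves as an adaptor. Several ADAMTS proteases, though not all, act on proteoglycans such as versican and aggrecan. TIMP3 is the TIMP that also inhibits several ADAM and ADAMTS enzymes. Preadipocytes lie in a fibroblast-type collagen matrix that is remodelled as they become fat cells.

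3T3-L1 cells are mouse embryo fibroblasts committed to the fat lineage, and adding insulin, dexamethasone and isobutylmethylxanthine makes them differentiate. The 4 groups were cultures with control siRNA (siGL3), with siRNA against aof2 (now Kdm1a, the gene of the histone demethylase LSD1), with siRNA against rfk (riboflavin kinase, which makes flavin mononucleotide), and with tranylcypromine, a drug that blocks monoamine oxidases and LSD1, in the induction medium. Induction followed transfection by 24 h and RNA was taken 24 h later, with 25 mM glucose and 10% serum in all cultures. The labels name no siRNA for the tranylcypromine culture, so drug and lack of transfection cannot be told apart there. Each group is 1 array, so no value has a replicate error and no test between cultures can be made. Where 4 signals stand in a row they are in the order control, aof2 siRNA, rfk siRNA, tranylcypromine, and 3 log2 differences from control follow the same order.

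The deposited values are MAS5 signals, a linear intensity per probe set, with a 2% trimmed mean of 500.003 on each array and medians of 53.3 to 56.2. Kdm1a was at 19.5% of control in the aof2 siRNA array and Rfk at 27.0% in the rfk siRNA array. The 6 fibroblast and preadipocyte markers looked at were all above the filter described below. Of 5 adipocyte markers on the array 4 passed it and Adipoq did not. The signals of these 5 summed to 8878, 6325, 6825 and 5806, highest in the control array. Single markers did not all follow the sum. Fabp4 differed by -0.92, -1.64 and -1.17, Pparg by -0.12, -0.77 and -0.44, and Lpl by -0.43, 0.01 and -0.47. Cebpa was above control, by 0.56, 0.03 and 0.28, and the dim Adipoq was above it too. The part of these markers in the differences below was not tested. Lower RNA of a gene in a bulk culture cannot be told apart from fewer cells that make it.

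The stretch of 100 bases before the annotated start is shown for 5 members whose signals took different courses: Timp3 and Adam8, which were higher in treated cultures, Timp1 and Mmp3, which were lower, and Adamts1, which was on opposite sides of control with siRNA and drug. They come from RefSeq promoter windows on GRCm38.p6, which matched 7 of the 10 genes, and are written 5′ to 3′ on the gene's strand with motif matches in capitals.
Timp1: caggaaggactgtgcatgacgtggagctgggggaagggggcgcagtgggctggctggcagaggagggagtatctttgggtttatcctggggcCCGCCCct
Timp3: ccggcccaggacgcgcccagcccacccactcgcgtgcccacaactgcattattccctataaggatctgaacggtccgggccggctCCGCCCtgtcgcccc
Mmp3: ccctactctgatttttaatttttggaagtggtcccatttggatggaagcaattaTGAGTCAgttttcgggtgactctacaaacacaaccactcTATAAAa
Adam8: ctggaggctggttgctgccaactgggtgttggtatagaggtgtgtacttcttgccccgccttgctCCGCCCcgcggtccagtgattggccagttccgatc
Adamts1: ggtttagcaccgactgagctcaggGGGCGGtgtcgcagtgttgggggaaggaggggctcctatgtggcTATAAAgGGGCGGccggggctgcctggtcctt
The stretches lie at chrX:20870066-20870165 (plus strand) for Timp1, chr10:86300312-86300411 (plus) for Timp3, chr9:7445722-7445821 (plus) for Mmp3, chr7:139992563-139992662 (minus) for Adam8 and chr16:85803114-85803213 (minus) for Adamts1.

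Motifs for 6 factors or elements were searched on both strands of the 300-base windows, which run from 250 bases before to 50 after the start. The AP-1 motif TGANTCA was found in 1 of 7 member windows, that of Mmp3, where it starts 46 bases before the annotated start, and in 7.81% of all 32851 windows. The SP1 motif GGGCGG was found in 6 of 7, all but Mmp3, and in 35.7% of all windows. The TATA box TATAAA was found in those of Mmp3 and Adamts1 and in 13.6% of all, and the RUNX motif TGTGGT in that of Mmp14 and in 16.8%. The CRE TGACGTCA and the glucocorticoid half-site AGAACA were found in 0 of 7, against 1.79% and 19% of all windows. The Timp2 and Timp3 windows held 25 and 24 CpG dinucleotides and that of Mmp3 held 1, with a median of 7 over all windows. A match is a string of letters in this window and says nothing of binding.

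With either LSD1 knockdown or tranylcypromine, Adam8, Adamts16 and Timp3 lay at least 2-fold above control on the brightest probe set of each, while with rfk siRNA only Timp3 did among the 9 members compared. Timp1 lay modestly below control in each treated array. Among those 9, Adamts1 and Adamts5 lay furthest below control with tranylcypromine, and with aof2 siRNA both were above it. A gene was compared where its brightest probe set had a mean log2 signal at or above that of the median probe set, which corresponds to 50.9; 10788 genes did, and Mmp3 was the member that did not.

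Of the 9 compared members, 3 were at least 2-fold higher and 0 at least 2-fold lower with aof2 siRNA, against 1.61% and 0.538% of all compared genes. With rfk siRNA 1 was higher and 0 lower, against 0.927% and 0.806%, and with tranylcypromine 3 were higher and 0 lower, against 2.23% and 0.945%. The members were picked on these contrasts, so nothing is read from their shares. The filter uses the mean over all arrays and also bears on the higher and lower counts. Adamts16, at 44.1 in the control array, was below the filter signal there and passed through higher signals such as 133 with aof2 siRNA. Mmp3, at 73.7 in the control array, was above the filter signal there and fell out through low signals in the treated arrays. Without a filter Mmp3 entered and 1 member was at least 2-fold lower in each comparison, with 3, 1 and 3 higher as before. Among all compared genes the aof2 siRNA split was 174 higher and 58 lower, and after median centring 134 and 77. The median log2 difference of the 9 members was 0.40, 0.39 and 0.21, beside -0.004, -0.009 and -0.02 over all compared genes. At least 1.5-fold higher were 4, 1 and 3 members, against 6.26%, 3.92% and 7.48% of compared genes, and 0 were as far lower, against 2.88%, 3.8% and 4.77%. The 3 comparisons share the control array.

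**Figure D1:**
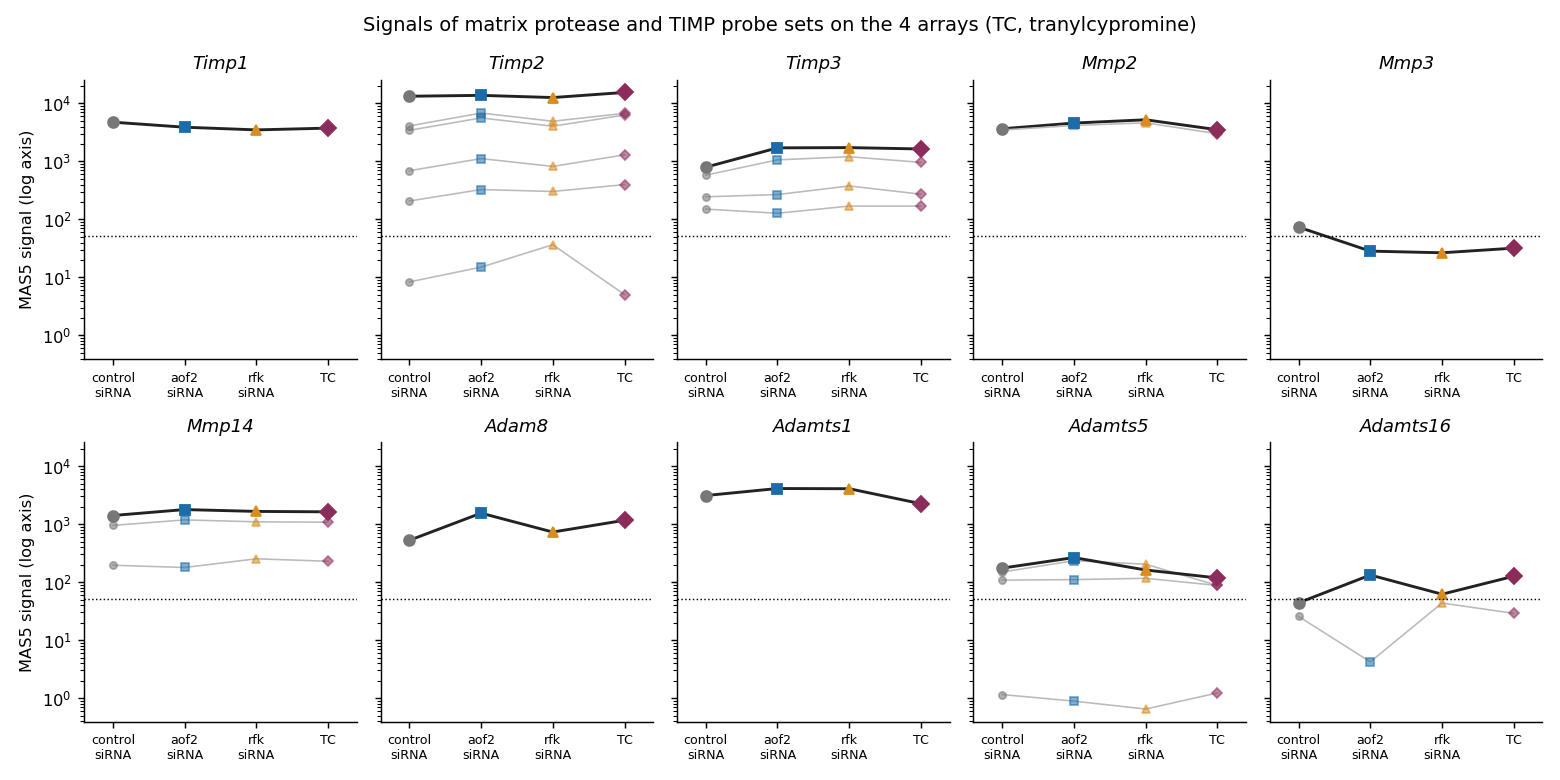
MAS5 signal (log axis) of every probe set of the 10 genes on the arrays of control siRNA, the siRNAs against aof2 and rfk, and tranylcypromine (TC); the black line joins the brightest probe set of each gene, grey lines the others, and the dotted line marks the filter at a signal of 50.9. Adam8 goes from 526 to 1548 with aof2 siRNA, and the probe sets of Timp2 and Timp3 run at different heights and not in parallel.

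Timp3, the inhibitor that binds to the matrix, had signals of 795 in the control array, 1715 with aof2 siRNA, 1732 with rfk siRNA and 1640.4 with tranylcypromine. The control array was the lowest of the 4, and the 3 treated arrays lay close together. The log2 differences were 1.11, 1.12 and 1.04. At least as far above control were 125, 73 and 219 of the 10788 compared genes. The probe sets of Timp3 disagreed in size: the next brightest gave 0.88, 1.05 and 0.73, and the 2 dimmest, at 151 and 246 in the control array, ranged from -0.24 to 0.62. The mean over its 4 probe sets was 0.47, 0.74 and 0.52, below 2-fold in each case. Centring each array on its median gave 0.98 with tranylcypromine, just short of 2-fold.

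Timp2, which both inhibits MMPs and helps MMP14 to activate MMP2, gave different answers by probe set. Its brightest one had signals of 13315, 13790.4, 12633 and 15488, so the 4 arrays were nearly level. They correspond to log2 differences of 0.05, -0.08 and 0.22, and the first became -0.03 after median centring. The 4 other probe sets above the filter gave 0.66 to 0.74 with aof2 siRNA, 0.23 to 0.54 with rfk siRNA and 0.72 to 0.94 with tranylcypromine. Among these the probe set with signals of 4095, 6838, 4930.2 and 6762 was higher in the aof2 siRNA and tranylcypromine arrays than in the other two. The brightest probe set has a signal above that of 99.0% of probe sets in the control array. The annotation ties it to the same source sequence as the probe sets with control signals of 208 and 692, whose differences with aof2 siRNA were 0.66 and 0.70. Why they differ was not tested, and the size of the Timp2 difference therefore depends on the probe set.

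Timp1, an inhibitor of most secreted MMPs, is represented by a single probe set with signals of 4755 in the control array, 3893 with aof2 siRNA, 3499.7 with rfk siRNA and 3754 with tranylcypromine. The control array was the highest. On the log2 scale it stood at -0.29, -0.44 and -0.34. At least as far below control were 13.5%, 6.83% and 14.3% of all compared genes. The range of the log2 differences over the probe sets of a gene had a median of 0.31, 0.29 and 0.34 in the 5228 genes with several above the filter, which is as large as the Timp1 differences with aof2 siRNA and tranylcypromine. In the RefSeq gene table Timp1 lies within Syn1 and Timp3 within Syn3, both synapsin genes of neurons, and both were below the filter on these arrays.

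Mmp2, gelatinase A, had signals of 3659 in the control array, 4589.6 with aof2 siRNA, 5232 with rfk siRNA and 3521 with tranylcypromine. It was highest with rfk siRNA, where the log2 difference was 0.52 and its other probe set gave 0.41. With aof2 siRNA the brighter probe set gave 0.33 and the other 0.26. With tranylcypromine the values were -0.06 and -0.21, on the other side of control from both siRNAs. For tranylcypromine minus rfk siRNA the brighter probe set stood at -0.57 on the log2 scale.

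Mmp14, the membrane-bound activator of MMP2, varied little. Its brightest probe set had signals of 1409, 1784, 1658 and 1631, with log2 differences of 0.34, 0.24 and 0.21. A further bright probe set gave 0.31, 0.20 and 0.18. The dimmest, at 196 in the control array, gave -0.13, 0.37 and 0.23.

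Mmp3, stromelysin, which cuts proteoglycans and can activate other MMPs, was dim throughout, with a single probe set. Its signals were 73.7 in the control array, 28.4 with aof2 siRNA, 26.6 with rfk siRNA and 32.0 with tranylcypromine. The control array alone was above the filter signal, and the 3 treated arrays were close to each other. The log2 differences of -1.37, -1.47 and -1.20 are of unreliable size at such signals, and with 16 added to each signal they became -1.01, -1.07 and -0.90. In the RefSeq gene table Mmp3 lies in a row of MMP genes on chromosome 9, and its neighbours Mmp1b, Mmp12, Mmp1a and Mmp10 were all below the filter.

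**Figure D2:**
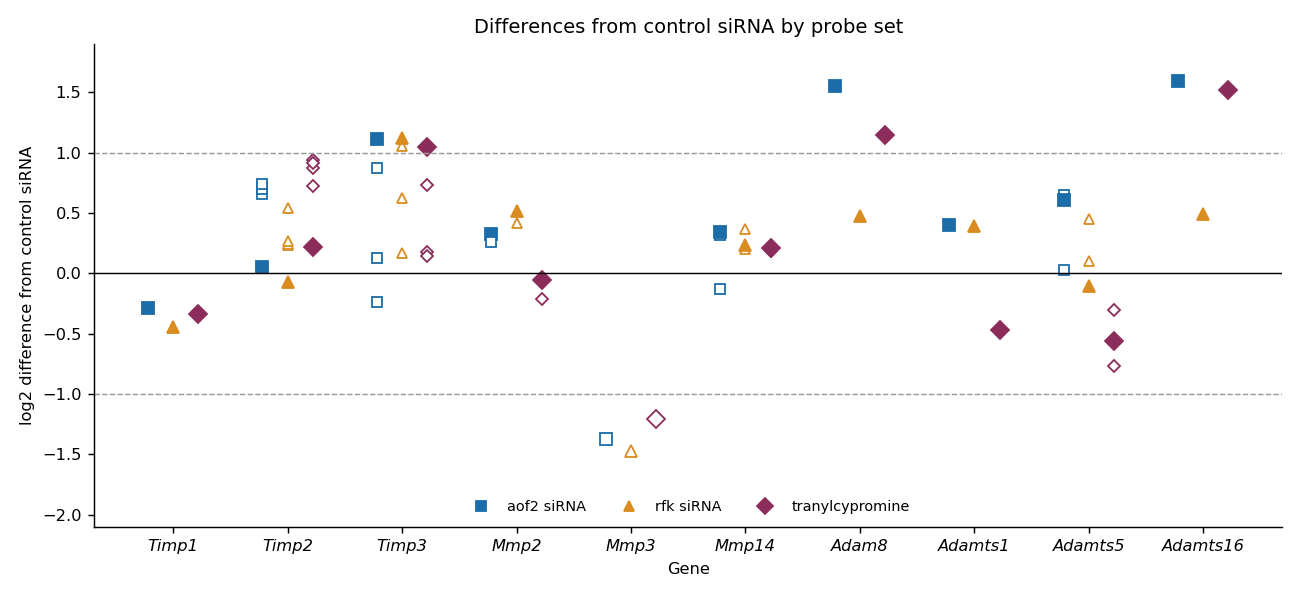
Log2 difference from control siRNA (vertical axis) for each gene, with squares for aof2 siRNA, triangles for rfk siRNA and diamonds for tranylcypromine; large filled symbols are the brightest probe set, small open ones the others above the filter, large open ones Mmp3, which lies below it, and dashed lines mark 2-fold. The brightest Timp2 probe set sits near 0 while the 4 others lie between 0.23 and 0.94.

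Adam8, a membrane protease best known from leukocytes and able to shed cell surface proteins, had signals of 526 in the control array, 1548 with aof2 siRNA, 731 with rfk siRNA and 1166 with tranylcypromine. It was highest with aof2 siRNA, intermediate with tranylcypromine and closer to control with rfk siRNA. The log2 differences were 1.56, 0.47 and 1.15, that is, 2.94-fold, 1.39-fold and 2.22-fold. With aof2 siRNA 44 compared genes were at least as far above control. Adam8 has 1 probe set, so no other measure of it stands beside these values. Of 5 macrophage markers Csf1r passed the filter, and Ptprc, Cd68, Adgre1 and Itgam lay below it. The signals of the 5, dim ones included, summed to 199.5, 241, 179 and 267, with the aof2 siRNA and tranylcypromine arrays the higher ones. Csf1r alone had signals of 109, 117, 101 and 119 on its brightest probe set. Its other probe set above the filter stood at 0.74 with tranylcypromine. Of 4 neutrophil markers S100a8 passed the filter, at -0.20, -0.61 and -0.43. The 4 summed to 328, 349, 282 and 248. The part of these markers in the Adam8 values was not tested.

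Among 7336 other genes with a signal of 414 or more on at least 1 array, those whose 3 log2 differences lay nearest to Adam8 were Aspn, Klf5 and Fhl1, at Euclidean distances of 0.28, 0.29 and 0.30. Aspn encodes asporin, a small leucine-rich matrix protein, and differed by 1.53, 0.32 and 0.91. Klf5, a transcription factor of early adipogenesis, differed by 1.26, 0.51 and 1.16, and Fhl1, a LIM domain protein, by 1.35, 0.27 and 1.08. This likeness rests on 4 arrays and is a description only. A gene could enter through the arrays where it is high: Fhl1 reached 414 with aof2 siRNA, at 526, and with tranylcypromine, at 436, but not in the control array, at 207, or with rfk siRNA, at 249.6.

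Adamts16, a protease of the ADAMTS family, was dim. The probe set above the filter had signals of 44.1 in the control array, 133 with aof2 siRNA, 61.9 with rfk siRNA and 127 with tranylcypromine. The aof2 siRNA and tranylcypromine arrays were alike and well above the other two. This gave log2 differences of 1.59, 0.49 and 1.52. The second probe set lay below the filter, with signals of 25.6, 4.23, 43.6 and 29.0, and was lowest with aof2 siRNA. The mean of both probe sets turned the aof2 siRNA value to -0.50 and gave 0.85 with tranylcypromine, so the direction with aof2 siRNA rests on 1 dim probe set.

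Adamts1, which cleaves versican and aggrecan, had signals of 3114 in the control array, 4115 with aof2 siRNA, 4082 with rfk siRNA and 2252 with tranylcypromine. The siRNA arrays were level with each other and above control, and the tranylcypromine array was the lowest of the 4. Against control these are log2 differences of 0.40, 0.39 and -0.47. Between treated arrays Adamts1 stood at -0.87 for tranylcypromine minus aof2 siRNA and at -0.86 for tranylcypromine minus rfk siRNA.

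Adamts5, an aggrecan-cleaving protease, had signals of 174 in the control array, 265 with aof2 siRNA, 162 with rfk siRNA and 118 with tranylcypromine on its brightest probe set. The aof2 siRNA array was the highest and the tranylcypromine array the lowest. The log2 differences were 0.60, -0.11 and -0.56. All 3 probe sets above the filter were below control with tranylcypromine, at -0.30 to -0.77, and above it with aof2 siRNA, at 0.03 to 0.65. With rfk siRNA they ran from -0.11 to 0.45 and give no common direction. Adamts5 follows Adamts1 directly on chromosome 16 among the protein-coding genes of the RefSeq table, and both were below control with tranylcypromine and above it with aof2 siRNA. The genes on either side of this pair are Cyyr1 and N6amt1. Cyyr1 was below the filter. N6amt1 differed by 0.05, -0.14 and -0.19, with the same signs as the brightest Adamts5 probe set but nearer to control with aof2 siRNA and tranylcypromine.

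**Figure D3:**
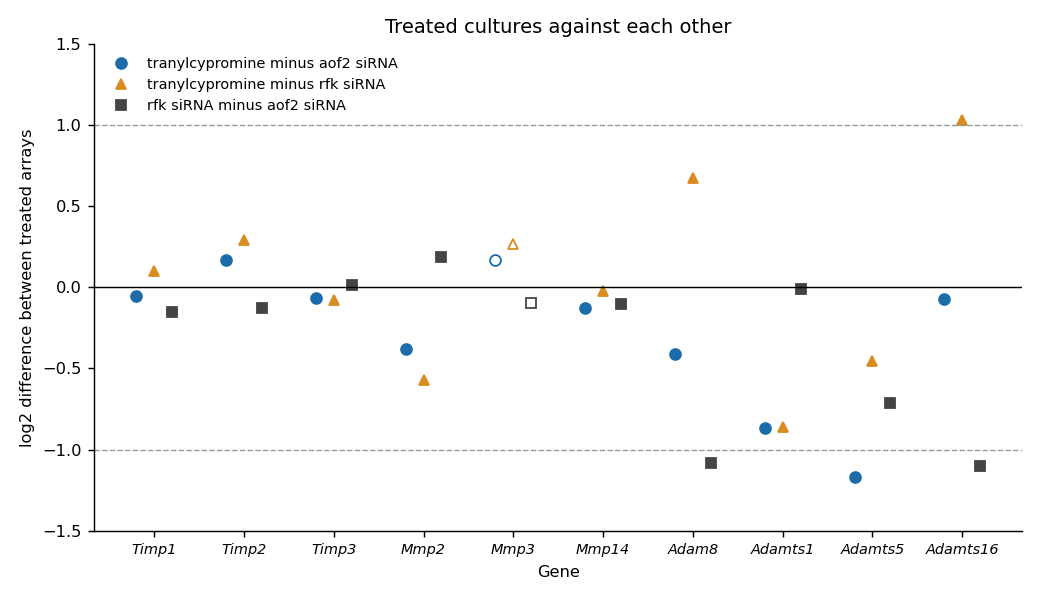
Log2 difference between treated arrays (vertical axis) for the brightest probe set of each gene: circles, tranylcypromine minus aof2 siRNA; triangles, tranylcypromine minus rfk siRNA; squares, rfk siRNA minus aof2 siRNA; open symbols are Mmp3, below the filter, and dashed lines mark 2-fold. Timp3 lies near 0 in all 3, whereas Adamts1 and Adamts5 are low with tranylcypromine.

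The treated arrays were also set against each other, which leaves the control array out. The brightest probe set of Timp3 stood at -0.06 for tranylcypromine minus aof2 siRNA, -0.08 for tranylcypromine minus rfk siRNA and 0.01 for rfk siRNA minus aof2 siRNA. Dimmer probe sets of Timp3 differed more, one at 0.41 for rfk siRNA minus aof2 siRNA and another at 0.49. Adam8 stood at -1.08 for rfk siRNA minus aof2 siRNA and Adamts16 at -1.10, beside 1.6% of all compared genes that were at least 2-fold lower in that comparison. Adamts16 was 1.03 higher with tranylcypromine than with rfk siRNA, where 2.28% of genes were at least 2-fold higher. The second Adamts16 probe set, below the filter, had the opposite sign in both. It gave 3.37 for rfk siRNA minus aof2 siRNA and -0.59 for tranylcypromine minus rfk siRNA. Adamts5 stood at -1.17 for tranylcypromine minus aof2 siRNA, where 0.964% were at least 2-fold lower. Its other probe sets above the filter gave -1.42 and -0.33. Timp1 lay between -0.15 and 0.10 in these comparisons, and the brightest probe set of Mmp14 between -0.13 and -0.02. The dimmest Mmp14 probe set, also above the filter, gave 0.36 for tranylcypromine minus aof2 siRNA. It gave -0.14 for tranylcypromine minus rfk siRNA and 0.50 for rfk siRNA minus aof2 siRNA.

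**Figure D4:**
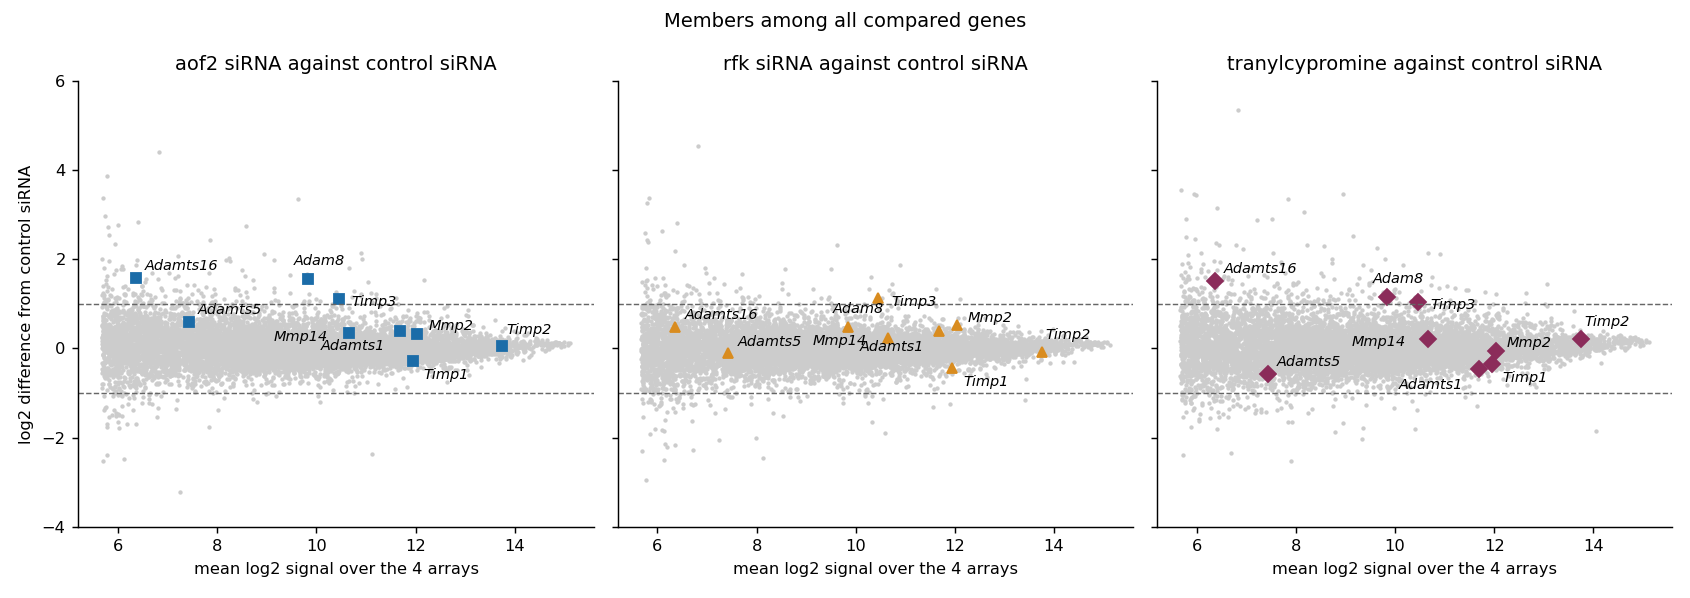
Log2 difference from control siRNA (vertical axis) against mean log2 signal over the 4 arrays (horizontal axis) for the 10788 compared genes in grey and the 9 compared members in colour, in a panel for each treatment; dashed lines mark 2-fold. With aof2 siRNA Adam8 lies at 1.56 and Timp3 at 1.11, and the grey cloud is widest at the dim end, where Adamts16 lies.

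Other genes of these families were taken from lists of matrix proteases, inhibitors, activators, substrates and regulators. Of 15 other MMP genes named on the array only 4 passed the filter, and on their brightest probe sets, which give the values here unless stated, 0 of these were at least 2-fold from control in any comparison. Mmp19, a secreted MMP, was lowest with tranylcypromine, at -0.93, with -0.50 for aof2 siRNA and -0.44 for rfk siRNA. The second Mmp19 probe set that passed read -0.80, -1.0 and -1.11. Mmp24, a membrane-bound MMP, stood at 0.50, 0.39 and -0.11, but the second that passed read 1.13, 0.94 and 0.91. The collagenases Mmp8 and Mmp13 and the gelatinase Mmp9 were all below the filter.

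Of 8 other ADAM genes compared, 1 was at least 2-fold higher with aof2 siRNA, against 1.61% of all compared genes, and with tranylcypromine 1 was at least 2-fold lower, against 0.945%. Adam33 was at 1.02 with aof2 siRNA, from a control signal of 60.5. Adam19, a protease of neuregulin and other ligands, was at -0.96 with aof2 siRNA, -0.53 with rfk siRNA and -1.02 with tranylcypromine, with signals of 439.7, 226, 304 and 217. Adam15, a membrane protease, stood at 0.64, 0.84 and 0.999, the last just short of 2-fold. Its 4 probe sets ranged from -0.06 to 0.86 with rfk siRNA and from 0.58 to 1.07 with tranylcypromine. The main sheddases Adam10 and Adam17 lay between -0.11 and 0.13 on the log2 scale on their brightest probe sets, and between -0.33 and 0.13 for Adam10 and -0.38 and 0.55 for Adam17 over all those above the filter.

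Of 9 other ADAMTS and ADAMTS-like genes compared, 0 were at least 2-fold from control in any comparison. With tranylcypromine 3 were at least 1.5-fold lower, against 4.77% of all compared genes. These were the aggrecanase gene Adamts4 at -0.90, Adamts10 at -0.83 and Adamts12 at -0.74. With aof2 siRNA they stood at -0.09, -0.19 and 0.09. With tranylcypromine Adamtsl4 and Adamtsl3 were above control, by 0.51 and 0.53.

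In the list of other inhibitors 6 genes were compared. Not all are inhibitors: Pcolce encodes an enhancer of procollagen cleavage, and Serpinf1 a serpin not known to inhibit proteases. Reck, a membrane-anchored inhibitor of MMPs, stood at 0.79 with aof2 siRNA, 0.49 with rfk siRNA and -0.07 with tranylcypromine, from signals of 373, 646, 525 and 355. Timp4 was dim and stood at 0.41, 0.55 and -0.05. Tfpi2, an inhibitor of serine proteases, was lower with tranylcypromine, at -0.88, and with rfk siRNA, at -0.58. The cysteine protease inhibitor Cst3 stood at 0.07, 0.09 and 0.01. In the plasmin and activator list 0 of 6 compared genes were at least 1.5-fold from control in any comparison, and Bsg, which encodes a surface protein known as an inducer of MMPs, was below control by -0.49, -0.57 and -0.43.

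Of 9 substrate genes compared, 0 were at least 2-fold from control with aof2 siRNA or tranylcypromine on their brightest probe sets, and with rfk siRNA 1 was higher and 1 lower, against 0.927% and 0.806% of all compared genes. Other probe sets above the filter passed 2-fold with tranylcypromine for Vcan, at -1.39, Nid1, at -1.63, Lama4, at -2.69, and Lox, at 1.25, and with aof2 siRNA for Lox, at 1.2. Vcan, the versican gene, differed by -0.07, 0.01 and 0.08, with signals of 17075, 16226, 17238 and 18068. Dcn, which encodes decorin, was at 1.07 with rfk siRNA and -0.76 with tranylcypromine. Col1a1, a chain of type I collagen, was at -0.55, -1.01 and -0.98, but its other probe set gave -0.11, -0.59 and -0.58. Nid1, a basement membrane linker, was at -0.80 with tranylcypromine. The list of 9 compared substrates had medians of -0.07, -0.05 and -0.12.

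In the list of AP-1, ETS and RUNX factors, which are known regulators of protease genes, 9 were compared and their medians were 0.22, -0.22 and 0.10. Fos was at 0.53, 1.17 and 0.11, with signals of 193, 279.5, 436 and 209. Junb was at -0.72, -0.77 and -0.36, and Ets1 at 0.15, -0.68 and -0.04. With rfk siRNA 1 of the 9 was at least 2-fold higher, against 0.927% of all compared genes, and 3 were at least 1.5-fold lower, against 3.8%. These 3 were Junb, Ets1 and Runx1 on their brightest probe sets. Over all probe sets above the filter, Ets1 ran from -0.82 to 0.16 with rfk siRNA and Runx1 from -0.76 to 0.58. Neither has a common direction there. Runx1 stood at 0.26 with tranylcypromine on its brightest probe set and at 1.97 on its other one above the filter.

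**Figure D5:**
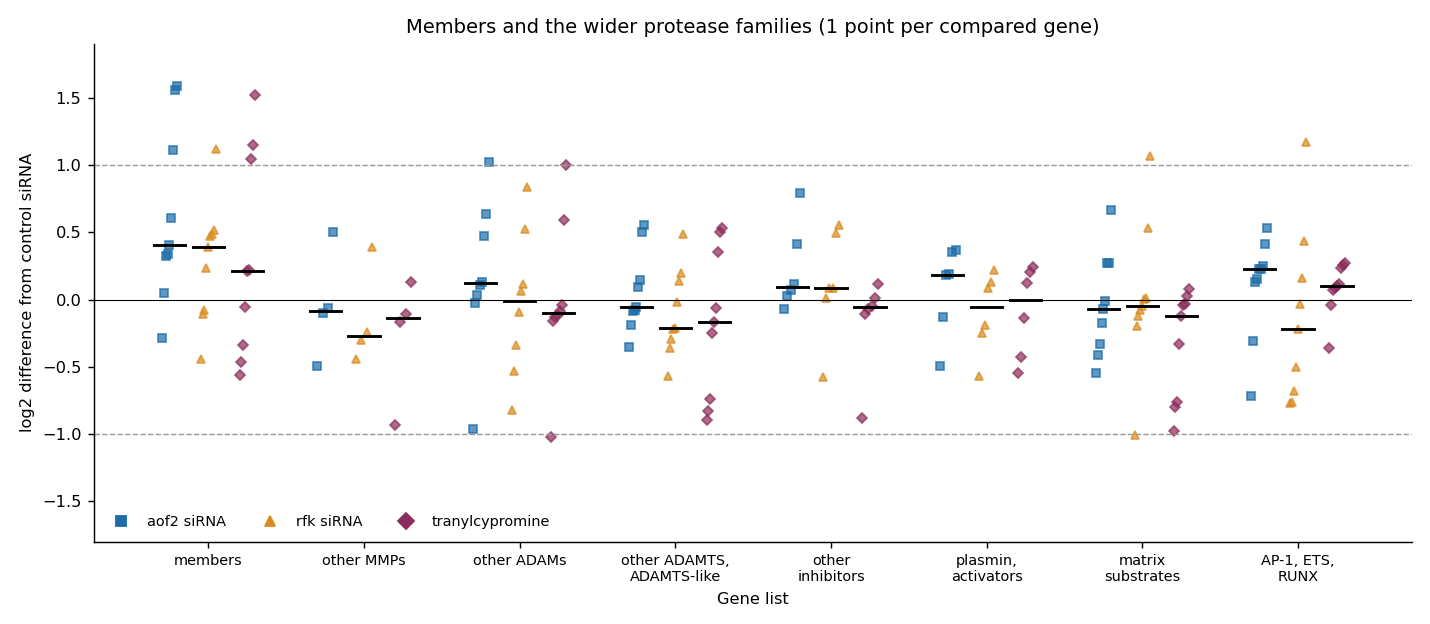
Log2 difference from control siRNA (vertical axis) for each compared gene of the 10-gene set and of 7 related lists (horizontal axis), with squares for aof2 siRNA, triangles for rfk siRNA, diamonds for tranylcypromine, black bars at each median and dashed lines at 2-fold. The members, which were picked on these values, reach 1.59, and the other MMPs stay between -0.93 and 0.50 on their brightest probe sets. The column of other inhibitors also holds Pcolce and Serpinf1, which are not protease inhibitors.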

How the data were processed

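Total RNA of 4 cultures, 250 ng each, was labelled as biotin cRNA and put on 1 Affymetrix 3' expression array each. The deposited values are linear intensities, MAS5 signals per probe set computed by the authors, per the submitters' processing notes. No version, scaling target or detection call is given in the sources used here. Equal trimmed means show array-wise scaling, which hides differences in total RNA. The analysis used log2 of the signal, without an offset. The platform annotation named the genes: 34958 probe sets had 1 symbol, 932 several and 9211 none here, and 34754 matched RefSeq (GRCm38.p6) by gene identifier. Each gene was represented by its probe set of highest mean log2 signal, and those at or above the median of all probe sets were compared. Called means at least 2-fold from control; bright means a mean signal of 414 or more, the 75th percentile. No test was possible with 1 array per group.

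The members, the lists, the motifs and the rule for named genes were chosen with earlier results of these data known. That rule took all members, up to the 2 highest and 2 lowest compared genes of each list, Kdm1a, Rfk and the 3 genes nearest to the bright member with the largest difference. Genes named outside it (Mmp8, Mmp9, Mmp13, Adam10, Adam17, Adamts12, Ets1, the markers and neighbours on the chromosome) were picked once their values were known. The call step was checked on simulated data with equal noise at all signal levels, so the check says nothing of calls on dim signals. Other settings tried were quantile normalization, median centring, an offset of 16, the mean of all probe sets, no _s_at or _x_at probe sets, other filters and a 1.5-fold threshold. The tools were pandas 2.3.3 and NumPy 2.4.6 under Python 3.11.15, with SciPy 1.17.1 for trimmed means and matplotlib 3.10.9 for plots.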

Additional observations from a re-analysis of the deposited data

How the results depend on the processing

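No paired analysis was possible because each group has 1 array. Of 177 member values recomputed under other scalings or choices of probe set, 161 moved by no more than the median range between probe sets of a gene. Part of these could not move, so their number is no measure of stability. All 30 values without _s_at and _x_at probe sets were fixed, since no member's brightest probe set is of these kinds. Averaging probe sets cannot change Timp1, Mmp3, Adam8 or Adamts1, each with a single probe set. Averaging those above the filter cannot change Adamts16 either. Of the other values 15 moved further, and 1 at least 2-fold from control changed sign: Adamts16 with aof2 siRNA was -0.50 with the mean of all probe sets. Among the smaller values 4 also changed sign: Timp2 with aof2 siRNA was -0.03 after median centring, Timp2 with rfk siRNA was 0.56 with the mean of all probe sets and 0.24 with that of the probe sets above the filter, and Adamts5 with rfk siRNA was 0.15 with the latter. With the mean of all probe sets, 7 members were compared. Of these 1 was called with aof2 siRNA, 0 with rfk siRNA and 1 with tranylcypromine. There 291 genes in all were called with rfk siRNA. With the mean of the probe sets above the filter, an alternative chosen after seeing the data, 0 members were called with rfk siRNA. Without a filter, Mmp3 entered, 2 members were called with rfk siRNA, and 3518, 3506 and 3791 genes in all with aof2 siRNA, rfk siRNA and tranylcypromine. With the filter at the 75th percentile these were 45, 40 and 88, and at 1.5-fold they were 986, 833 and 1322, beside 232, 187 and 343 as reported. Dim signals limit Mmp3 and Adamts16 most.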
